A study of Mus musculus with 2 samples.

Results

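The mucin genes described here are 7 of the 479 genes that a Xenium In Situ panel counted as single RNA molecules in 2 lung sections. They were taken by name: Muc3a, Muc4 and Gm9573 (also called Muc21), which encode mucins of the cell membrane, and Muc5ac, Muc5b, Muc6 and Muc19, which encode secreted, gel-forming mucins. Both sections came from floxed mice in which adenoviral Cre deleted Rb1, Trp53 and Rbl2 in the lung, a genotype abbreviated RPR2. The Cre was instilled into the trachea at 10 weeks of age. The paper lists C57BL/6 mice but does not give the strain of the floxed mice separately. The CRPR2 section carried in addition a germline knockout of Cracd, a gene for a regulator of the actin cytoskeleton, so that every cell of that mouse and not only its tumors lacked the gene. There was 1 section per genotype, cut from 1 block on 1 slide, so genotype, mouse and section cannot be told apart and no difference between them has a replicate check. All intervals given are exact 95% intervals that cover counting error only.

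Mucins are large glycoproteins whose central domains are rich in serine, threonine and proline and carry dense O-linked sugars. In the airways Muc5b and Muc5ac form the mucus gel, made by secretory cells, whereas membrane mucins such as Muc4 coat the cell surface and the cilia. Muc3a is best known from the intestine, Muc6 from gastric glands and Muc19 from salivary glands. Small cell lung cancer, which loss of Rb1 and Trp53 models in mice, is a neuroendocrine tumor and is not known for making mucus.

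The stretches of coding sequence below show what sets these genes apart, since the serine and threonine codons, in capitals, are the sites where mucin sugars attach. Each is the richest 120 bases inside 1 exon, read 5′ to 3′ on the coding strand from GENCODE release 21 on GRCm38. The identifiers of all 7 genes are in that annotation under the same names, whereas the build behind the panel is not given in the sources used here.

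Muc4: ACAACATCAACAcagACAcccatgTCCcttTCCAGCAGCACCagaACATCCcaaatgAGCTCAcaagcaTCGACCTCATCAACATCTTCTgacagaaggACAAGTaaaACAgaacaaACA
Muc5ac: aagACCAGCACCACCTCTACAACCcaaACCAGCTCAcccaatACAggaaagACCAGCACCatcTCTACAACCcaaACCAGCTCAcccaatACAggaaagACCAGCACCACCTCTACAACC
Muc5b: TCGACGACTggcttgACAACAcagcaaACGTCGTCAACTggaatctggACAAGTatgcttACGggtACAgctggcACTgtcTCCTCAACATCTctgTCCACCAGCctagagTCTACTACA
Gm9573: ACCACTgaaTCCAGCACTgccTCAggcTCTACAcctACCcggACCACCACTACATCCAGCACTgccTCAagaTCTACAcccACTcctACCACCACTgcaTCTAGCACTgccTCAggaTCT
Muc3a: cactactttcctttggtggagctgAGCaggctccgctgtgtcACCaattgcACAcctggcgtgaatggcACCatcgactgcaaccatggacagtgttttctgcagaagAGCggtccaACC

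The Muc4 stretch lies in exon 2 of 27 on the plus strand at chr16:32750208-32750327, and that of Muc5ac in exon 31 of 49 on the plus strand at chr7:141808723-141808842. Muc5b, the next gene on chromosome 7, has its stretch in exon 31 of 49 on the plus strand at chr7:141863963-141864082. The Gm9573 stretch lies in exon 2 of 3 on the minus strand at chr17:35622234-35622353, and the Muc3a stretch in exon 3 of 7 on the minus strand at chr5:137211377-137211496. Serine and threonine took 28 of the 40 codons shown for Muc5ac and for Gm9573, 25 for Muc4, 24 for Muc5b and 6 for Muc3a. Over whole coding sequences, serine, threonine and proline made up 69.1% of the codons of Gm9573, the highest of 475 panel genes with an annotated coding sequence, against a panel median of 18.8%. The share was 44.8% in Muc4, 41.1% in Muc6, 33.8% in Muc5b and 31.2% in Muc5ac. The gene model named Muc3a was the exception, with 218 codons, 26.2% of them serine, threonine or proline and no 24-base run present more than 1 time, whereas Muc5ac repeated its commonest 24-base run 24 times.

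Muc5ac, Muc5b and Muc6 lie together on chromosome 7, at positions 141788972 to 141819231, 141839070 to 141873084 and 141633456 to 141655319. Muc4 spans 32735886 to 32782391 on chromosome 16, where its end overlaps Muc20 on the opposite strand. Muc3a spans 137208813 to 137212389 on chromosome 5. Muc19 spans 91838326 to 91934555 on chromosome 15, overlaps Smgc and is annotated as a processed transcript without a coding sequence. Gm9573 spans 35617923 to 35626637 on chromosome 17 and overlaps Sfta2. Of all runs of 40 bases in the annotated transcripts, Muc5ac and Muc5b shared 3 with each other, Muc19 shared 59 with Smgc, and Muc3a, Muc4, Muc6 and Gm9573 shared none with another annotated gene. The probe sequences themselves were not analysed here.

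After cells with under 20 transcripts were left out, 152915 cells of the RPR2 section and 340609 of the CRPR2 section remained, with a median of 101 transcripts in both. The sections shared 8 cell identifiers, and 0 of these had identical counts. Tumor cells were those with 4 or more transcripts of Chga, Chgb, Scg5, Snap25 and Celf3 together, 13782 cells in RPR2 and 160674 in CRPR2. Their label was borne out by genes outside that rule, with Insm1, a transcription factor of neuroendocrine cells, at 9526 CPM (counts per 1000000 panel transcripts) in RPR2 and 9623 in CRPR2. The airway cells numbered 20134 and 24890, and were gated as secretory (Scgb3a1, Scgb3a2, Reg3g, Retnla) or ciliated (Foxj1 and 5 others). In the CRPR2 section the secretory gate also held Insm1 at 2619 CPM against 355 in RPR2, the alveolar type 2 gate at 1389 against 172 and the endothelial gate at 912 against 41.3. Cells are outlines grown from nuclei, so RNA of a neighbour can be counted in a cell, and levels outside the tumor gate are therefore also given for cells without tumor gate transcripts.

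The background was set by the 20 negative control probes, which match no mouse RNA. In tumor cells they averaged 2.29 and 2.23 CPM (RPR2 and CRPR2, in this order throughout), and the highest single probe reached 12.2 and 10.8. Of the 7 mucin genes, 5 exceeded the highest control probe in RPR2 tumor cells and 6 in CRPR2 tumor cells. Muc6 fell below it in both, and Gm9573 in RPR2 only.

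**Figure D1:**
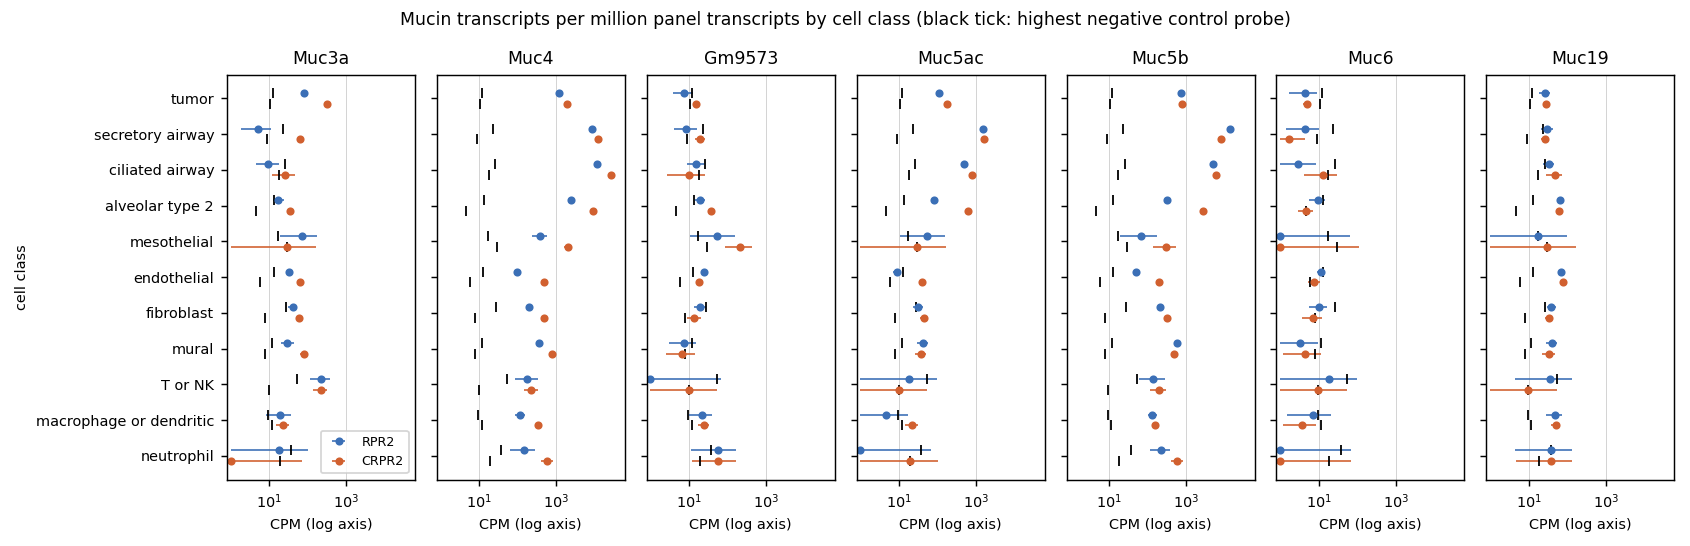
Level of each mucin gene (CPM, log axis) in 11 cell classes of the RPR2 section (blue) and the CRPR2 section (orange). Points are sums over all cells of a class with exact 95% counting intervals, black ticks mark the highest of the 20 negative control probes in the same cells, and a level of 0 is drawn at the left edge at 1 CPM. Muc4, Muc5ac and Muc5b were highest in the airway classes, Muc3a was raised in tumor and T or NK cells, and Muc6 lay at or near the control probes.

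Muc4, the membrane mucin of the airway surface, was the most abundant of the 7 genes. Ciliated cells held 11441 CPM (95% CI from 11237 to 11648) in RPR2 and 26819 (26311 to 27334) in CRPR2. Secretory cells followed at 8454 and 12059 CPM, alveolar type 2 cells at 2458 and 9039, and tumor cells at 1168 and 1951. In each section these 4 levels were separated by more than their counting intervals. The order of the leading pair in RPR2 turned when a class gate needed at least 2 markers, where the secretory class was highest at 11057 CPM. The small mesothelial class held 382 and 2069 CPM, the latter not distinguishable from the tumor level of its section (95% CI from 1613 to 2614). Endothelial cells, which should lack the gene, held 93.4 and 476 CPM, and the tumor level stood above theirs in both sections. Mural cells held 352.3 and 768.5 CPM. Cells left without a class held 1344 and 2785 CPM, more than the tumor cells. At least 1 Muc4 transcript was present in 84.1% of ciliated, 56.7% of secretory, 51.0% of alveolar type 2 and 15.1% of tumor cells of CRPR2, and in 49.2%, 46.8%, 19.2% and 9.37% of those of RPR2. The share was 0.951% and 4.55% in endothelial cells, whose median depth of 102 transcripts was close to the 111 and 108 of tumor cells. After each cell was thinned to 50 transcripts, 4.50% of tumor cells in RPR2 and 7.57% in CRPR2 were positive.

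Muc5b, the main gel-forming mucin of healthy mouse airways, followed another order. Secretory cells held most, 13612 CPM (95% CI from 13402 to 13825) in RPR2 and 7908 (7795 to 8022) in CRPR2. Ciliated cells came next at 5100 and 5877 CPM, then tumor cells at 742 and 787 and alveolar type 2 cells at 322 and 2735. The last 2 classes therefore changed places between the sections. Muc5b was present in 51.7% and 40.9% of secretory cells and in 6.25% and 6.72% of tumor cells. The share was 0.512% and 1.91% in endothelial cells, but 4.655% and 4.289% in mural cells, which held 573 and 494 CPM. In RPR2 mural cells thus stood above alveolar type 2 cells. Cells left without a class held 913 and 1008 CPM, more than the tumor cells. Thinning gave 3.15% and 3.19% of tumor cells.

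Muc5ac, the gel-forming mucin of goblet cells that rises in airway inflammation, was lower throughout on the same CPM scale. Secretory cells held 1515 and 1625 CPM, with intervals from 1445 to 1587 and from 1574 to 1677 that overlapped narrowly. Ciliated cells held 474 and 792 CPM, tumor cells 112 and 173, and alveolar type 2 cells 81.3 and 618. Secretory cells contained 61.8% and 34.6% of all Muc5ac transcripts of their section, and tumor cells 6.42% and 29.1%. Tumor cells were 9.01% of all cells in RPR2 and 47.2% in CRPR2.

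Muc3a, the short gene model shown last among the sequences, had the reverse order of the airway mucins between tumor and airway cells. Tumor cells held 81.6 CPM (95% CI from 68.4 to 96.7, 134 transcripts) in RPR2 and 318 (310 to 326, 5941 transcripts) in CRPR2. Secretory cells held 5.13 and 63.1 CPM and ciliated cells 9.55 and 25.3, against highest control probes of 23.1 and 8.89 in the former and 25.8 and 17.7 in the latter. In RPR2 both airway classes thus lay below the highest control probe, with 5 and 2 of the 20 probes at or above them. Tumor cells contained 23.8% of all Muc3a transcripts in RPR2 and 81.4% in CRPR2. Endothelial cells, with 36.5% of the transcripts, held more of the RPR2 total than the tumor cells did, at a lower level of 31.7 CPM. The cells of the T or NK gate reached 215 CPM in both sections, from 12 and 22 transcripts, with intervals from 111 to 376 and from 135 to 325. In RPR2 the tumor interval overlapped that of cells left without a class, at 69.0 CPM (52.0 to 89.8). It also overlapped that of mesothelial cells, at 69.4 CPM (18.9 to 177.7) from 4 transcripts.

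The other 3 genes were rare. Muc6 was counted 135 and 196 times in all, at 8.29 and 5.25 CPM, and 1 and 3 of the 20 control probes were counted as often. No cell held more than 1 Muc6 transcript. The endothelial class of CRPR2 was an exception to this level, with 7.64 CPM (5.29 to 10.7) above a highest control probe of 5.84, whereas in RPR2 its 11.3 CPM lay below that probe. Muc19 stood above every control probe in tumor cells at 26.2 and 27.9 CPM, and was higher in endothelial cells at 68.1 and 75.2 and in alveolar type 2 cells at 65.3 and 62.2. The intervals of these last 2 classes overlapped in both sections. Gm9573 held 7.31 and 15.3 CPM in tumor cells and 24.4 and 18.6 in endothelial cells. Alveolar type 2 cells held 19.7 and 37.0 CPM of it, the latter from 160 transcripts (95% CI from 31.5 to 43.2). Its highest value among gated classes in CRPR2, 207 CPM in mesothelial cells, rested on 7 transcripts.

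The sections were then compared within the tumor cells, over the 426 panel genes that exceeded the highest control probe in either section. A ratio past 2-fold in either direction was found for 15.0% of these genes. Among the mucin genes, 2 of the 6 that entered passed 2-fold, both higher in CRPR2, a count too small to set apart from that share. Muc3a was 3.90-fold higher in CRPR2 (log2 ratio 1.96, 95% CI from 1.72 to 2.22), which put it at rank 5 of the 426 genes. The other was Gm9573, with 12 and 286 transcripts at 7.31 and 15.3 CPM, but its RPR2 level was not above the highest control probe, so no fold is given. It no longer passed 2-fold with a tumor gate of 3 or of 10. Muc4 reached 1.67-fold (log2 ratio 0.74, from 0.67 to 0.81) and Muc5ac 1.54-fold (0.63, from 0.41 to 0.85). For Muc5b the log2 ratio was 0.08 with an interval from -0.00025 to 0.17, and for Muc19 it was 0.09, from -0.36 to 0.57. The median log2 ratio of the 6 genes was 0.68, beside 0.03 over all 426.

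**Figure D2:**
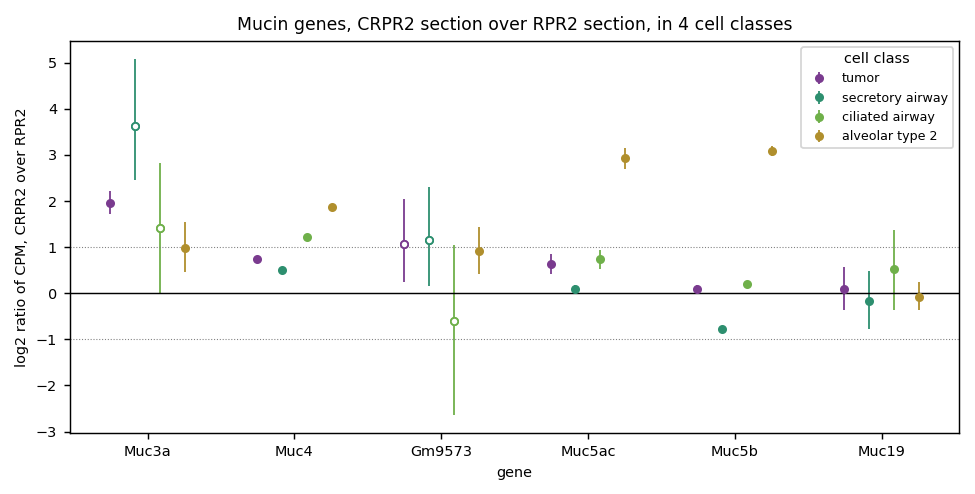
Log2 ratio of CPM in the CRPR2 section over the RPR2 section (vertical axis) for 6 mucin genes in tumor (purple), secretory airway (dark green), ciliated airway (light green) and alveolar type 2 cells (ochre). Bars are exact 95% counting intervals, dotted lines mark 2-fold, and open points are ratios in which at least 1 section was not above its highest control probe. Muc3a was 1.96 in tumor cells, whereas Muc5b was near 0 in tumor cells, at -0.78 in secretory cells and at 3.09 in alveolar type 2 cells.

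The airway classes were compared between the sections next. In secretory cells 38.3% of 436 genes passed 2-fold, among them 2 of 6 mucin genes, Muc3a and Gm9573, a share near that of all genes. Neither was above the highest control probe in RPR2, where Muc3a held 5.13 CPM against 63.1 in CRPR2 and Gm9573 8.54 against 19.1, so no fold is given. Muc5b was lower in CRPR2, with a log2 ratio of -0.78 (from -0.81 to -0.75), Muc4 was at 0.51 and Muc5ac at 0.10. The last 2 signs turned in secretory cells without alveolar markers, to -0.86 for Muc4 and -0.70 for Muc5ac, and Muc5b was at -1.55 there. In secretory cells with no tumor gate transcript the log2 ratio was -0.39 for Muc5b and 0.85 for Muc4. In ciliated cells 26.2% of 382 genes passed 2-fold, among them Muc4 at 2.34-fold (log2 ratio 1.23, from 1.19 to 1.27). Muc3a also passed there, but from 10 transcripts in each section, and its RPR2 level was not above the highest control probe. In ciliated cells with no tumor gate transcript the log2 ratio of Muc4 was 1.26, but in those without alveolar markers it was 0.61.

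Alveolar type 2 cells, the surfactant-producing cells of the air sacs, were compared in the same way. In them 37.0% of 467 genes passed 2-fold, and of the mucin genes Muc5b (8.50-fold), Muc5ac (7.61-fold) and Muc4 (3.68-fold) did, all higher in CRPR2. Muc5b was present in 2.52% of these cells in RPR2 and in 17.6% in CRPR2, and Muc5ac in 0.861% and 6.63%. Other genes differed in this gate too. Of a list of 10 epithelial genes, 7 were higher in CRPR2 by over 2-fold and 0 lower. Among them were Upk3a (378 and 5264 CPM) and Cldn2 (115 and 1213 CPM). Mki67, a proliferation gene, was at 497 and 4499 CPM. Whether the gate held the same kinds of cells in both sections was not tested. In this gate Scgb3a1, an airway secretoglobin, was at 268 and 3947 CPM and Insm1 at 172 and 1389, so the values were read again in the 11008 and 11025 cells with no airway marker or tumor gate transcript. There Muc4 held 2097 and 5362 CPM (log2 ratio 1.35), Muc5b 57.0 and 338 (2.57) and Muc5ac 14.4 and 89.4 (2.63). The 14.4 CPM of Muc5ac in RPR2 was close to 13.2 CPM, the highest control probe of the whole RPR2 gate. The differences were smaller than in the whole gate but remained past 2-fold. Muc3a, in contrast, held 18.5 and 19.5 CPM in these cells, a log2 ratio of 0.08 against 0.99 in the whole gate.

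Tumor cells were also set against all other cells of their section, where 75.4% of 448 genes in RPR2 and 68.0% of 465 in CRPR2 passed 2-fold. Muc3a was the 1 mucin gene higher in tumor cells by that measure, with a log2 ratio in RPR2 of 1.48 (95% CI from 1.19 to 1.77). In CRPR2 that ratio was 2.13, with bounds of 2.04 and 2.21, and it fell to 1.20 with a tumor gate of 10. Another 3 members were lower by over 2-fold in each section: Gm9573, Muc19 and Muc5b in RPR2, and Muc4, Muc5ac and Muc5b in CRPR2. Over all genes, 235 of 448 in RPR2 and 245 of 465 in CRPR2 were lower by over 2-fold, and 103 and 71 were higher. The 3 of 6 mucin genes that were lower are near the share of all genes. In RPR2 the tumor level of Gm9573 was not above the highest control probe. The RPR2 log2 ratio of Muc19, -1.06, was 0.094 in tumor cells without markers of another class, which held only 2 Muc19 transcripts. As transcripts per 1000 cells, the RPR2 ratios of Muc19 and Muc5b were -0.88 and -0.96, short of 2-fold.

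Within the tumor gate the airway mucins and Muc3a parted. Tumor cells were divided by the number of gate transcripts they held, from 4 to 6 up to 25 or more. Muc4 was lower in each further bin of RPR2, at 2020, 1069, 718 and 503 CPM, and in CRPR2 it was 2694, 1683, 1348 and 1387 CPM, the last 2 with overlapping intervals. Muc5b was 1175 CPM in the lowest bin and 242 in the highest of RPR2, and 1135 and 442 in CRPR2. Muc3a was higher in each further bin of CRPR2, from 272 CPM (259 to 285) in the lowest bin through 324 and 373 to 594 (486 to 720) in the highest. In RPR2 it was 78.0, 81.7 and 76.6 CPM and then 149, the last from 8 transcripts in 183 cells, and these 4 intervals overlapped.

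The same cells divided by their airway marker transcripts gave the mirror image. Muc5b went from 104 and 192 CPM in tumor cells with no airway marker transcript to 4688 and 3759 in those with 10 or more. Muc5ac went from 14.9 and 47.2 to 785 and 719 CPM, and Muc4 from 392 and 1162 to 5394 and 6190. Cells without airway markers made up 5728 of the tumor cells in RPR2 and 64167 in CRPR2. Muc3a did not follow: it held 81.0 and 330 CPM without airway markers and 55.5 and 222 with 10 or more. In tumor cells with no airway marker, 18.8% of 415 genes and 4 of 6 mucin genes passed 2-fold between the sections. The log2 ratio was 2.03 for Muc3a, 1.57 for Muc4 and 0.88 for Muc5b. For Muc5ac it was 1.67, from 9 and 318 transcripts, and its 14.9 CPM in RPR2 was close to the highest control probe of 11.6. The fourth gene was Gm9573, with 2 transcripts in RPR2, below the highest control probe, and 115 in CRPR2.

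**Figure D3:**
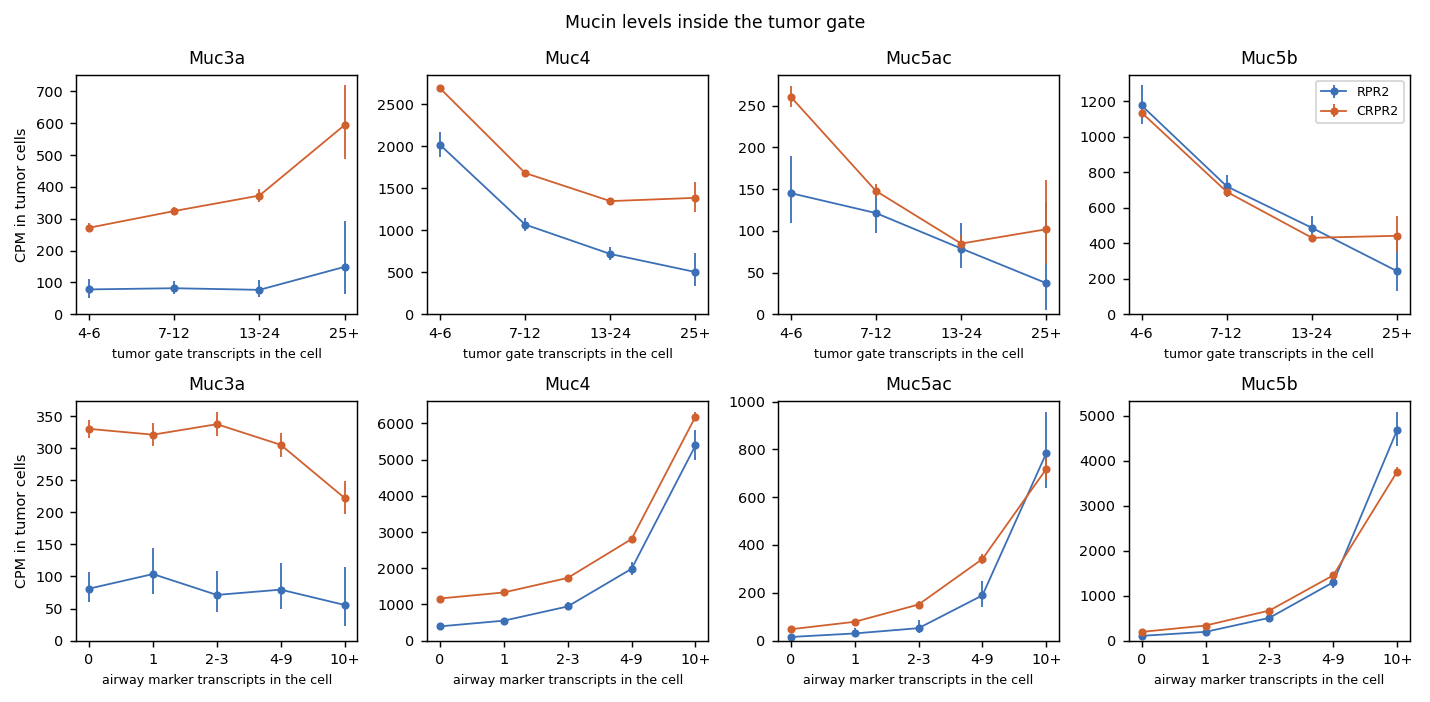
Level of 4 mucin genes (CPM) in tumor cells of the RPR2 (blue) and CRPR2 (orange) sections, by the number of tumor gate transcripts in the cell (upper row) and by the number of airway marker transcripts (lower row). Points are sums over the cells of a bin with exact 95% counting intervals. Muc4, Muc5ac and Muc5b were highest in the lowest gate bin and in the highest airway marker bin, while Muc3a in CRPR2 went from 272 to 594 CPM with gate transcripts.

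Counts per cell described how the transcripts were spread. The variance over the mean of counts per cell was 1.00 for the median control probe, the value of random scatter at an even level. In tumor cells it was 2.07 and 2.06 for Muc4, 1.81 and 1.80 for Muc5b, and 1.31 and 1.17 for Muc5ac. Muc3a was at 1.11 and 1.10, with at most 2 and 3 transcripts in a cell. It was present in 0.914% and 3.45% of tumor cells, beside 0.0581% and 0.692% of secretory cells. The highest ratio was that of Muc5b in both sections, at 2.99 in secretory cells of RPR2 and 2.74 in alveolar type 2 cells of CRPR2. Up to 17 Muc5b transcripts were held by a secretory cell of RPR2. Its ratio was 2.48 in secretory cells of CRPR2 and 2.15 in alveolar type 2 cells of RPR2. This ratio nears 1 for any gene with few transcripts per cell. It therefore cannot show that Muc3a was spread more evenly than the more abundant mucins. In tumor cells of RPR2, 234 cells held 2 or more Muc5b transcripts and 8 held 2 or more of Muc3a, and in CRPR2 there were 2450 and 373 such cells.

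**Figure D4:**
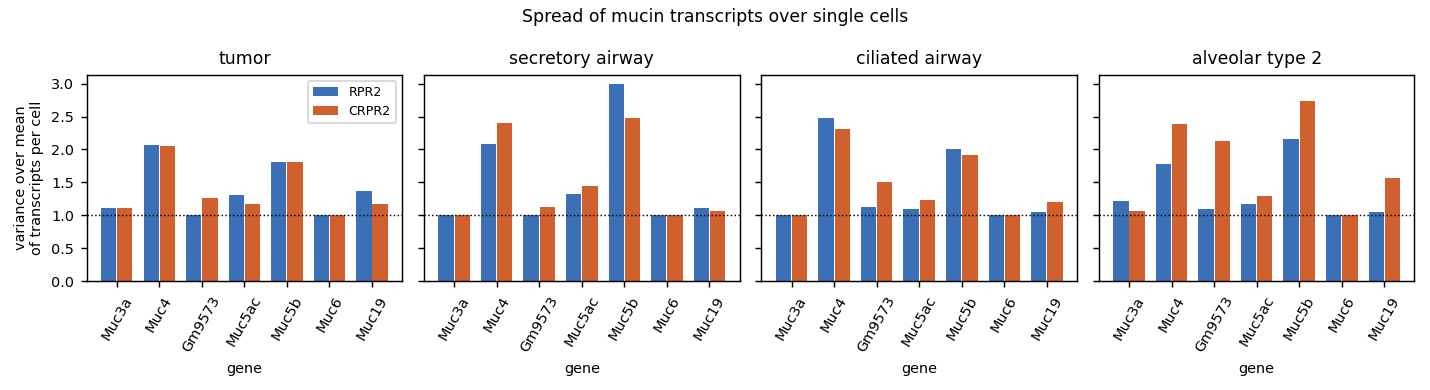
Variance over mean of transcripts per cell (vertical axis) for the 7 mucin genes in 4 cell classes of the RPR2 (blue) and CRPR2 (orange) sections, with the dotted line at 1, the value of even random scatter. Muc4 and Muc5b had the highest ratios, while Muc6 was at 1 in each class and Muc3a at 1.11 and 1.10 in tumor cells. The ratio nears 1 for any gene with few transcripts per cell, so genes of unlike level cannot be ranked by it.

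The gel-forming mucins shared cells. In tumor cells that held Muc5ac, Muc5b was present in 51.9% (82 of 158) in RPR2 and 30.8% (915 of 2971) in CRPR2, against 5.72% and 6.27% of those without Muc5ac. Cells with Muc5ac were also deeper, with medians of 159 and 138 transcripts against 111 and 108. Muc3a differed in this: Muc4 was present in 7.94% and 16.2% of tumor cells with Muc3a and in 9.38% and 15.1% of those without.

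The partners of Muc5b inside the tumor gate included several genes of secretory cells. In RPR2 tumor cells with 2 or more Muc5b transcripts, the 5 genes raised most over cells without were Tff2 (a trefoil peptide of mucus, 40.4-fold), Agr2 (needed to fold mucins, 29.7-fold), Reg3g (an antibacterial lectin, 23.2-fold), Muc5ac (22.0-fold) and Scgb3a1 (a secretoglobin, 13.6-fold). In CRPR2 they were Reg3g (20.9-fold), Kng2, Rhcg, Tff2 and Agr2 (13.2-fold). Reg3g and Scgb3a1 are themselves markers of the secretory gate. For Muc4 the RPR2 list was Upk1b (19.0-fold), Msln (14.6-fold), Serpina10 (12.3-fold), Ccdc153 (10.7-fold) and Agr2 (9.32-fold). Upk1b and Msln are markers of the mesothelial gate and Ccdc153 of the ciliated gate. Upk1b also held 1945 CPM in secretory and 977.5 in ciliated cells of RPR2, against 234.6 in tumor cells. In CRPR2 the Muc4 list was led by Cldn2 (7.71-fold), a claudin of leaky tight junctions, and Kng2 (7.07-fold). The CRPR2 cells with 2 or more Muc3a transcripts had no comparable partner, since the 5 leading genes were held by 4 to 17 of the 373 cells.

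Of a list of 8 secretory genes on the panel, 6 entered the tumor comparison. Their median log2 ratio was -0.50, beside 0.03 over all 426 genes that entered. Among these 6 genes 2 passed 2-fold, both lower in CRPR2: Agr2 (log2 ratio -1.35) and Tff2 (-1.29). That count is too small to set apart from the 15.0% of all 426 genes that passed. In RPR2 Agr2 and Tff2 held 250 and 428 CPM in tumor cells, against 3257 and 11533 in secretory airway cells. How much of their tumor gate counts came from such neighbours was not tested. Spdef, a transcription factor of goblet cells, was at 0.23. Among the other mucin family genes, Muc2, the gel-forming mucin of the intestine, passed 2-fold in tumor cells (42.6 and 107 CPM, log2 ratio 1.33). Muc1, a membrane mucin of most epithelia, held 10984 and 11591 CPM there, and Muc20, which overlaps Muc4 in the genome, 1089 and 1949. Of the 10 epithelial genes, Cldn2 and Upk3a were higher in CRPR2 tumor cells and Upk1b was lower by over 2-fold, beside 15.0% of all genes.

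Across 23 class-by-section levels, the genes whose pattern was most like that of each mucin differed by gene, as a description over classes that share libraries and neighbours. Muc5ac was most like Spdef (Pearson r of 0.96), Muc5b like Scgb3a1 (0.95), Muc4 like Aqp4 (0.95) and Muc3a like Axin2 (0.71).

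Outside the tumor gate Muc3a was found in cells with transcripts of T cell and lymphatic genes. Cells with no tumor gate transcript held 29.2 CPM in RPR2 and 42.3 in CRPR2. Among the 5 genes raised most in those with Muc3a were Ctla4, an inhibitory receptor of T cells, in both sections, and Mmrn1, a gene of lymphatic endothelium, in RPR2. The cells were then divided by such genes, a choice made after these values had been seen. Cells with 2 or more Ctla4 transcripts held 879 CPM of Muc3a (95% CI from 605 to 1234, 33 transcripts in 373 cells) in RPR2 and 823 (644 to 1036, 72 transcripts in 908 cells) in CRPR2. These were 33.8 and 24.4 times the levels in cells without Ctla4, 26.0 and 33.8 CPM, and above the tumor levels of both sections. The probe sequences were not analysed here, and whether all of these counts are Muc3a RNA was not tested.

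The cells were also divided by another T cell gene and by the lymphatic gene. Mmrn1 was picked because it was raised in RPR2 cells with Muc3a, and Ctla4 because it was raised in both sections. Their direction in those sections was thus set by the choice and is no independent check. Cells with 2 or more transcripts of Cd3e, part of the T cell receptor complex, held 381 and 376 CPM of Muc3a. Cells with 2 or more Mmrn1 transcripts held 289 and 166 CPM, 11.6 and 4.34 times the level without. Muc5ac in the Ctla4 cells was counted 0 times in RPR2, which allows up to 98.2 CPM, and 3 times in CRPR2. Muc4 held 186 and 446 CPM in them, below the 1946 and 4462 of cells without Ctla4.

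**Figure D5:**
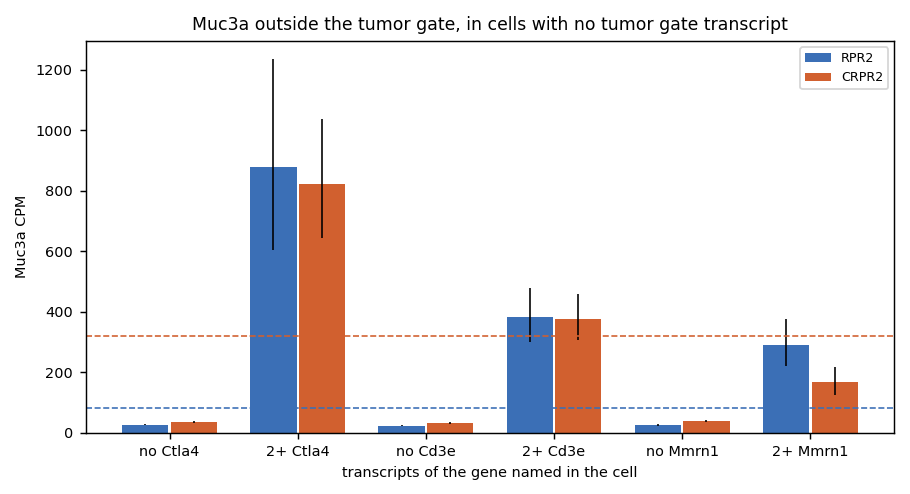
Muc3a level (CPM) in cells outside the tumor gate with no tumor gate transcript, divided into those with 0 and those with 2 or more transcripts of Ctla4, Cd3e or Mmrn1, in the RPR2 (blue) and CRPR2 (orange) sections. Bars carry exact 95% counting intervals and dashed lines mark the tumor cell level of each section, 81.6 and 318 CPM. Cells with Ctla4 stood highest, at 879 and 823 CPM.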

How the data were processed

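Xenium transcripts were counted in 2 lung sections, 1 per genotype. The deposited files hold raw counts of transcripts per cell and feature (479 genes, 20 negative control probes, 41 negative control codewords), which the authors' instrument software assigned to cells grown from nuclei. The submitters' processing notes name Seurat 4.4.0. Cells with under 20 transcripts were left out. A cell joined the class with the highest summed marker count, of at least 4, with tumor cells (Chga, Chgb, Scg5, Snap25, Celf3) set first; 12 of 15 listed classes had 3 or more markers on the panel and were used. Doublets were not called. Counts were summed per class and given per 1000000 panel transcripts (CPM), with exact Poisson, Clopper-Pearson and conditional binomial intervals at 95%. With 1 section per genotype no test was possible, and a gene was called past 2-fold. Single-cell shares were also taken after thinning each cell to 50 transcripts (seed 1), which left out 595 of the tumor cells in RPR2 and 5323 in CRPR2. The ratio code was tested on simulated counts with known ratios. Named genes were the 7 mucins, the listed gene lists, the 3 most alike genes per mucin by Pearson r of log2(CPM + 10), and the 5 most raised partners above 100 CPM. The members, lists and gates were chosen with earlier results of these data known. Python 3.11.15, numpy 2.4.6, scipy 1.17.1 and matplotlib 3.10.9 were used.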

Additional observations from a re-analysis of the deposited data

How the results depend on the processing

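The tumor comparison between sections was repeated with minimums of 10 and 50 transcripts per cell, tumor gates of 3 and 10, tumor cells without airway markers or without any other class marker, and transcripts per 1000 cells. Muc3a stayed higher in CRPR2 in 7 of 7 alternatives, with log2 ratios from 1.93 to 2.07, and Muc4 in 7 of 7, from 0.71 to 1.59, whereas Muc5b ranged from -0.05 to 0.88. The upper ends for Muc3a and Muc4 came from tumor cells without any other class marker. In RPR2 those cells held only 2 Muc3a and 8 Muc4 transcripts. The number of mucin genes past 2-fold, 2 in the reported setting, became 4 in tumor cells without airway markers and 1 with a tumor gate of 3 or of 10, beside 18.8%, 14.5% and 17.4% of all genes tested there (15.0% as reported). The log2 ratio of Muc3a in tumor over other cells of CRPR2, reported as 2.13, was 2.39 with a gate of 3, 1.20 with a gate of 10, 1.75 without markers of any other class and 2.29 as transcripts per 1000 cells. A gate of 10 moves cells with fewer gate transcripts to the other cells, so its lower ratio does not show a lower tumor level. For Muc19 in RPR2 that ratio turned from -1.06 to 0.094 in tumor cells without markers of another class, from only 2 transcripts there. The class with the highest level was kept in 47 of 56 comparisons, and the exceptions were Muc6, Gm9573, Muc19 and, in RPR2 with at least 2 markers per cell, Muc4, whose highest class became the secretory one. In secretory cells without alveolar markers, chosen after seeing the data, Muc4 turned from 0.51 to -0.86 and Muc5ac from 0.10 to -0.70, and in ciliated cells Muc5b turned from 0.20 to -0.31; the cause was not tested. No paired analysis was possible because each genotype had 1 section. Depth limits Muc6 and Gm9573 most, and Muc3a in RPR2 airway cells, which held 6 and 10 transcripts.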

Other observations

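A few cells of the CRPR2 section held several Gm9573 transcripts. There were 41 cells with 2 or more, 13 of them in the tumor gate, and the highest held 7, whereas RPR2 had 3 such cells with at most 2 each. Of the 41 cells, 29 held Areg, an epidermal growth factor receptor ligand, 19 held Ly6g6c, 5 held Ivl, a gene of squamous epithelium, and 2 held Krt13. Over all CRPR2 tumor cells Ly6g6c was at 1095 CPM and Areg at 529. Muc19 was counted 2 or more times in 71 CRPR2 cells, 15 of which held Areg, and in 29 RPR2 cells, 1 of which did. These genes were chosen after their values were seen. Their shares over all cells are not given here, so the counts cannot show that they go with Gm9573 or Muc19.

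Other mucin family genes marked other classes. Muc16, known from mesothelium, held 17959 CPM in RPR2 and 11556 CPM in CRPR2 mesothelial cells, and 48.7 and 763 CPM in secretory airway cells. Muc1 was highest among the classes named here in alveolar type 2 cells, at 18970 and 23999 CPM. Muc2 held 52.1 and 710 CPM in secretory airway cells and 49.8 and 374 CPM in alveolar type 2 cells.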
